A study of Caenorhabditis elegans with 2 samples.

Results

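Genes for cilia and intraflagellar transport, 40 in all, were examined in a map of NHR-20 binding in *Caenorhabditis elegans* larvae. NHR-20 is 1 of the many nuclear hormone receptors of nematodes. The genes were chosen by name, and all 40 were found among the 19973 protein-coding genes of the WBcel235 annotation. They encode 4 subunits of transport particle A, 14 subunits of transport particle B, 6 subunits of the BBSome, 6 motor subunits, 5 transition zone proteins and 5 regulators or other cilia proteins. The series holds 1 group of 2 biological replicates, both hermaphrodite L1 larvae of strain OP515, whose genotype is given as unc-119(tm4063) III; wgIs515. The strain stably expresses NHR-20 with a GFP-FLAG tag at its C-terminus, and chromatin of whole larvae was sonicated and precipitated with an antibody against GFP. Larvae were taken 6 hours after synchronization, which was done by starving L1 larvae after bleaching. Both replicates come from the same transgenic line, so differences between lines were not measured.

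Cilia of *C. elegans* are found on sensory neurons, where they hold the receptors and channels for chemicals, temperature, touch and pheromones. Intraflagellar transport builds them: kinesin-2 motors carry transport particles A and B outward along the axoneme, dynein-2 carries them back, and the BBSome links membrane cargo to the particles. The transition zone at the base of the cilium gates what enters. Many of these genes are switched on by DAF-19, a transcription factor of the RFX family, through a palindromic promoter element called the X-box. Whole larvae were used and ciliated neurons are a small part of them, so binding in few cells and weak binding in many cells cannot be told apart.

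The X-boxes are shown first, because they mark the promoters of these genes. With the X-box consensus of 14 letters, searched on both strands with at most 1 mismatch between 250 bp before and 50 bp after any annotated start, 28 of the 40 genes held a match (70%, 95% Clopper-Pearson interval 53.5 to 83.4), against 5.9% of all protein-coding genes (1178 of 19973). Without a mismatch the count was 19 of 40, against 0.516% of all genes, and 18.4% of the 103 genes with such a match were cilia genes of this list. The matches centred a median of 51 bp upstream of the start (range 193 bp upstream to 27 bp downstream), and 26 of 32 lay upstream. The examples below are RefSeq reference sequence (WBcel235), read 5′ to 3′ on the strand of the match, with the X-box in capitals. They are from daf-19 and daf-10, the genes with both an X-box and a thresholded NHR-20 summit, from dyf-11, osm-6 and dyf-2, where a weak candidate summit lay near the X-box, and from osm-5, which held a pair of matches.
daf-19, chrII:10169417-10169430, plus strand, no mismatch: gaagtaGTTTCCATGGAAACcaaaat
daf-10, chrIV:9146260-9146273, minus strand, 1 mismatch: ctgtgaATCTCCATAGCAACcaatgc
dyf-11, chrX:763574-763587, plus strand, no mismatch: aaggtgGTCTCCATGACAACgtgccc
osm-6, chrV:11927493-11927506, plus strand, no mismatch: tgagtgGTTACTATGGTAACatgtgg
dyf-2, chrIII:13686585-13686598, plus strand, 1 mismatch: ggagttGTTGCCTTGGTAACcgggct
osm-5, chrX:2984163-2984176, plus strand, no mismatch: tacataGTTACTATGGCAACgctccg
osm-5, chrX:2984211-2984224, plus strand, 1 mismatch: ctcttgGGTGCCATGGCAACcagaac
By role, a match was present at 4 of 4 genes of particle A, 12 of 14 of particle B, 5 of 6 of the BBSome, 3 of 5 of the transition zone and 4 of 5 regulators or others. None of the 6 motor genes held one in this window. With the window moved to 500 bp upstream of any start codon, 32 genes held a match, against 8.65% of all genes, and bbs-5, ift-81, mks-1, osm-1 and the motor gene xbx-1 were among them. Many of these genes are known to be switched on through the X-box, so the high share of matches is not an independent result. A match describes letters in the reference sequence and was not measured in these larvae.

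NHR-20 summits were scored next. The authors deposited a thresholded list of 6423 summits for the pooled replicates, whose signal values ran from 85.96 to 2711 with a median of 169.5. They labelled it as thresholded by irreproducible discovery rate, which scores agreement between ranked lists. The cutoff is not given in the sources used here. The authors also deposited lists of 30000 candidate regions for the pool and for each replicate, and the pooled candidates reached down to a signal of 17.44. These lists were deposited as peaks together with background, so a candidate below the threshold may be background. The −log10 q-values of the pooled candidates at cilia genes ran from 4.18 down to 0.0898. The signal is the value that the authors' caller gave each region relative to a control, and it is compared here only within a list. Promoter windows reached from 1000 bp before each annotated start to 300 bp after it, and a gene was scored by the summits inside its windows.

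Few cilia genes carried a thresholded NHR-20 summit. Only daf-10, ift-81, klp-11 and daf-19 did, which is 4 of 40 (10%, 95% Clopper-Pearson interval 2.79 to 23.7), where the share of all protein-coding genes was 20.6% (4121 of 19973). That share lies inside the interval of the cilia genes. Counting candidates below the threshold as well, 18 of 40 genes had a pooled candidate summit (45.0%, interval 29.3 to 61.5), against 47.2% of all genes (9431 of 19973). The cilia genes were thus close to the share of all genes in candidates. The candidates they had were mostly of low signal, but with 18 genes the difference from all genes was not tested. The strongest candidate of each gene had a median signal of 37.98 over the 18 cilia genes with one, and of 68.88 over the 9431 genes with one. In 13 of the 18 (72.2%) it was under that second median. In 14 of the 18 (77.8%) it was under the lowest thresholded signal, which held for 56.3% of all genes with a candidate (5310 of 9431).

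**Figure D1:**
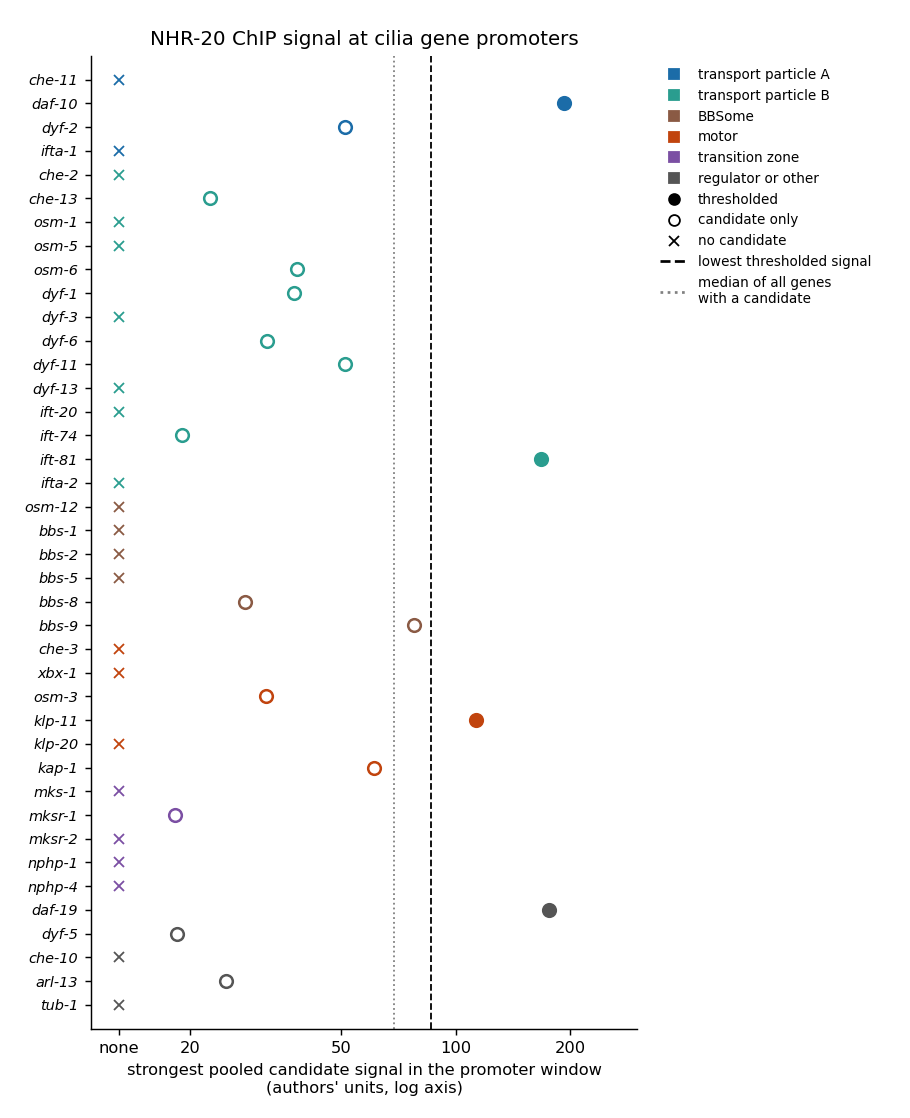
Strongest pooled candidate signal in the promoter window of each of the 40 cilia genes, on a log axis in the authors' units, coloured by role. Filled circles are thresholded summits, open circles are candidates below the threshold and crosses mark genes with no pooled candidate; 4 genes lie to the right of the lowest thresholded signal (85.96, dashed), and 5 to the right of the median of all genes with a candidate (68.88, dotted).

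The 4 summits were of middling to low strength. daf-10, which encodes the particle A subunit IFT122, had the strongest (chrIV:9146968-9147363, upstream of the gene), with a signal of 192.4 and rank 2777 of 6423 (43.2% from the top). daf-19 followed with a signal of 176.3 and rank 3085 (chrII:10169378-10169773, upstream of the gene). ift-81, which encodes a core subunit of particle B, had a signal of 167.4 and rank 3254 (chrX:5298265-5298393, upstream of the gene). Only daf-10 and daf-19 were above the median of the thresholded list, and ift-81 was just under it. klp-11, a motor subunit of the heterotrimeric kinesin-II, had a signal of 113.3 and rank 4886 (chrIV:8757752-8758147, in an intron). The klp-11 summit was 1.32 times the lowest thresholded signal, and the daf-10 summit 2.24 times.

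The 201 bases centred on each of these summits are shown because they are the only thresholded NHR-20 sites in the promoter windows of the 40 genes. They are RefSeq reference sequence (WBcel235) on the plus strand, and capitals mark the repeat GAGAGA on either strand, with overlapping matches joined.
daf-10, chrIV:9147066-9147266: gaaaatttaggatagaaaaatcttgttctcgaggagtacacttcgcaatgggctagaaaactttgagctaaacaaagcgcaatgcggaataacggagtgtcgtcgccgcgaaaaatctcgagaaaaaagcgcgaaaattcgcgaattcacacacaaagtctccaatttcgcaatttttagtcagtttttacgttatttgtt
ift-81, chrX:5298239-5298439: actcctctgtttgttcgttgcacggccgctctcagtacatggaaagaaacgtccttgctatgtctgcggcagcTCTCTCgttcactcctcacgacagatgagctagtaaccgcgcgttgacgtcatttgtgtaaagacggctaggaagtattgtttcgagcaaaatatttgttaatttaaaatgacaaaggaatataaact
klp-11, chrIV:8757850-8758050: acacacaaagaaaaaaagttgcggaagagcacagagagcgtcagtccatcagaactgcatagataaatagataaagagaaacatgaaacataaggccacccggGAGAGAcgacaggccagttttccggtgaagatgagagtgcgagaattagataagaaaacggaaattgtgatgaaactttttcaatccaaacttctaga
daf-19, chrII:10169476-10169676: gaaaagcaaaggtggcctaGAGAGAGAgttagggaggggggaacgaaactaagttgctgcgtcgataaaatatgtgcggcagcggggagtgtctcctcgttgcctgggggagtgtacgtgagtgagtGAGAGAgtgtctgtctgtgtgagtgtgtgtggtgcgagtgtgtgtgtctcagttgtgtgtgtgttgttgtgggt
The daf-19 window held 3 matches to GAGAGA, of which a pair overlap. The ift-81 and klp-11 windows held 1 each, and the daf-10 window held 0. Over all 6423 thresholded windows of this width, 39.6% held the repeat. Neither the nuclear receptor site AGGTCA (8.41% of all windows) nor the GATA site TGATAA (23.4%) was found on either strand in any of the 4 windows. The GC content of the windows ran from 39.3% at daf-10 to 53.2% at daf-19.

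At 3 of the 4 genes the summit also lay in the promoter window of another gene. Over all 3609 thresholded promoter summits, 24.7% (891) were shared in this way. The daf-10 summit lay 955 bp upstream of daf-10, but 297 bp upstream of rpb-12, which encodes a small subunit of the RNA polymerases, and 302 bp upstream of aly-2, an mRNA export factor of the ALY family. rpb-12 lies on the same strand as daf-10 and ends 122 bp before it, so the whole of rpb-12 lies between the summit and the daf-10 start. The ift-81 summit lay 222 bp upstream of ift-81 and 297 bp upstream of a start of ags-3, which encodes a G protein regulator on the opposite strand and has a longer transcript that runs across the region. The klp-11 summit was 254 bp downstream of the start at 8758204 and was shared with F20C5.11, a gene model on the same strand that overlaps klp-11, from which it was 299 bp downstream. The daf-19 summit was in no other window, and the nearest other protein-coding start, that of the glyceraldehyde-3-phosphate dehydrogenase gene gpd-4, was 1692 bp away. daf-19 was therefore the only cilia gene with a thresholded summit not shared with another gene.

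The start used matters at daf-19 and klp-11, which have several. The daf-19 summit lay 230 bp upstream of the start of transcript a and 1 bp farther from that of b, which encode the long forms of DAF-19, known to keep up synaptic protein levels in neurons without cilia. It was far from the other starts, at 5124 bp upstream of transcript d, 6000 bp upstream of e and 7903 bp upstream of c. Transcript c encodes the short form that is known to drive cilium formation. At that start there was only a weak candidate, 394 bp upstream and in an intron, with a pooled signal of 19.76 and rank 26374 of 30000. It had a counterpart in replicate 1 (rank 18975) and none in replicate 2. At klp-11 the summit lay in the window of the starts of transcripts c, d and f, and 4116 bp downstream of the start of the longest transcript, a. The start of transcript a had a weaker candidate 564 bp upstream, with a signal of 47.76 and rank 10575.

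The 2 replicates were then set side by side by rank, since the depth is unknown. The daf-10 summit ranked 2685 in replicate 1 (signal 129.8) and 3495 in replicate 2 (signal 55.07). The daf-19 summit ranked 2793 (126.4) and 3554 (54.29), and the ift-81 summit ranked 3607 (101.4) and 3082 (62.03). These 3 were thus among the 6423 strongest regions of both replicates, with summit positions that moved by at most 31 bp from the pooled ones. The klp-11 summit ranked 3959 in replicate 1 (92.93) and 12427 in replicate 2 (18.12), so it stood among the strongest regions in replicate 1 only. In all, 3 of 4 were found among the strongest of both, where the share over all thresholded summits was 80.5% (5170 of 6423). Both shares come from a list already thresholded by irreproducible discovery rate, so agreement between replicates may be partly built in.

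In replicate 2 the leading klp-11 site was a different one. It lay 650 bp upstream of a start, in a coding exon, with rank 5026 and a signal of 39.46, and its pooled counterpart (signal 79.0, rank 6866) fell just short of the threshold. bbs-9, which encodes a BBSome subunit, was the other gene just outside, with a pooled signal of 77.78 and rank 6963, 938 bp upstream of its start and inside the window of its same-strand neighbour C48B6.10. The −log10 q-value of both regions was 4.18 as deposited, the same as at the 4 thresholded summits. Both signals were under the lowest thresholded signal of 85.96. Why the authors' cut left these regions out was not tested.

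Scored in each replicate alone, the strongest 6423 regions gave 4 genes in replicate 1 (10%, against 20.7% of all genes) and 6 in replicate 2 (15%, against 20.3%). The genes of replicate 1 were the same 4 as in the pool. Replicate 2 added bbs-9 (rank 6290, 752 bp upstream) and che-10, which encodes rootletin, a component of the ciliary rootlet. The che-10 region (chrII:4638928-4639303) ranked 6268 in replicate 2 with a signal of 32.02, and the nearest candidate of replicate 1 was 31967 bp away. With all candidates counted, 16 genes had one in replicate 1 (40.0%, against 46.8% of all genes) and 13 in replicate 2 (32.5%, against 47.6%). Candidates in both were found at 10 genes (25%, against 37.4% of all genes). No list held a candidate at 20 of the 40 genes (50%, against 41.9% of all genes).

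**Figure D2:**
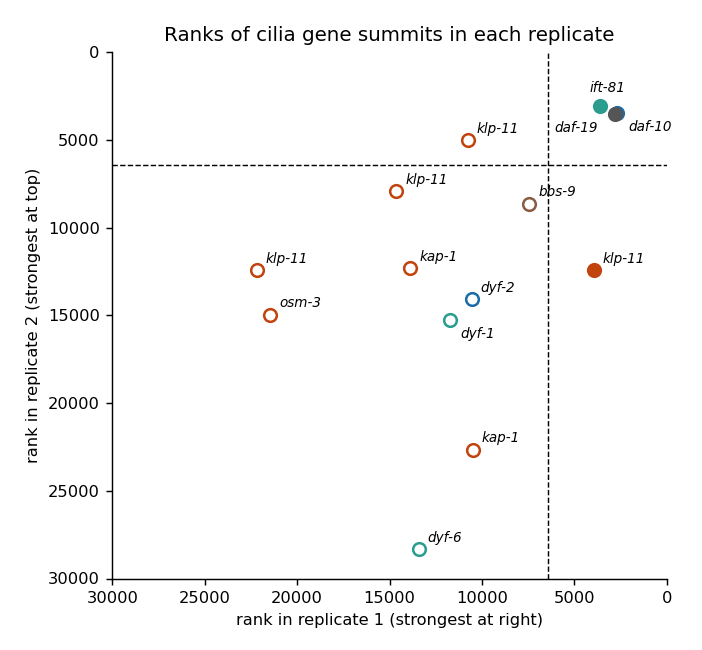
Rank of each cilia gene candidate summit in replicate 1 (x axis, strongest at right) and replicate 2 (y axis, strongest at top), for the 14 of 34 pooled candidate summits matched within 200 bp in both replicates. At klp-11 and dyf-1, a region of replicate 2 was the counterpart of several pooled summits. Filled circles are thresholded summits, colours give the role as in the plot of signal by gene, and dashed lines mark rank 6423; daf-10, daf-19 and ift-81 are the only 3 inside both lines.

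Particle A serves the return traffic toward the base of the cilium with dynein-2. Besides daf-10, dyf-2 (IFT144) had candidates below the threshold, 4 of them, the strongest with a signal of 51.17 at 479 bp upstream of an internal start, in an intron (rank 10569 in replicate 1 and 14091 in replicate 2). That site was also in the window of sid-2, a gene for a double-stranded RNA transporter. che-11 (IFT140) and ifta-1 (IFT121) had no candidate in any list, and their nearest thresholded summits were 7891 and 28257 bp away. One gene of 4 therefore had a thresholded summit, and that summit was nearest to rpb-12.

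Particle B serves the outward traffic with kinesin-2. Besides ift-81, 6 of its 14 genes had candidates, all of them weak. dyf-11 (IFT54) had the strongest, 182 bp upstream with a signal of 51.26, which ranked 8532 in replicate 1 and had no counterpart in replicate 2. osm-6 (IFT52) followed with 38.29 at 91 bp upstream, matched in replicate 1 only (rank 9733). The others were dyf-1 (IFT70, 37.67), dyf-6 (IFT46, 31.87), che-13 (IFT57, 22.55) and ift-74 (IFT74, 19.06), the last near the bottom of the list at rank 27435. The remaining 7 genes had no candidate in any list: che-2 (IFT80), osm-1 (IFT172), osm-5 (IFT88), dyf-3 (IFT38), dyf-13 (IFT56), ift-20 (IFT20) and ifta-2 (IFT22). ift-81 and ift-74 encode partners in 1 subcomplex, and their strongest summits differed widely, at 167.4 and 19.06.

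The BBSome genes had no thresholded summit (0 of 6, which with so few genes has a 95% Clopper-Pearson interval of 0 to 45.9%). bbs-9 was the strongest, as given above. bbs-8 had a candidate of signal 27.87 at 776 bp upstream, matched in replicate 1 (rank 15127) and not in replicate 2. osm-12 (BBS7), bbs-1, bbs-2 and bbs-5 had none in any list, and their nearest thresholded summits were between 9199 bp (bbs-5) and 29275 bp (bbs-1) away.

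The motors differed among themselves. Of the kinesin-II subunits, klp-11 had 4 pooled candidates and kap-1, the accessory subunit, had 3, with signals of 61.06, 43.74 and 42.6 at 918, 719 and 131 bp upstream. The strongest kap-1 candidate ranked 6771 in replicate 1 and had no counterpart within 200 bp in replicate 2. klp-20, the other motor subunit of the same kinesin, had none, and it was the cilia gene farthest from a thresholded summit (78173 bp). osm-3, the homodimeric kinesin-2 of the distal cilium, had a candidate of signal 31.8 in an intron, 539 bp upstream of an internal start. The dynein-2 genes che-3 (heavy chain) and xbx-1 (light intermediate chain) had no candidate, with the nearest thresholded summit 42943 bp from che-3 and 10819 bp from xbx-1.

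Candidates at the transition zone genes were few and weak. mksr-1 (B9D1) had 1, in an intron 294 bp downstream of the start, with a signal of 18.34 and rank 28503 of 30000. nphp-4 (nephrocystin-4) had none in the pool and a weak one in replicate 1, 33 bp upstream (signal 15.35, rank 20905). mks-1, mksr-2 (B9D2) and nphp-1 (nephrocystin-1) had none in any list. Thresholded summits were thus found at 0 of 5 of these genes (interval 0 to 52.2%).

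Among the regulators and other genes, daf-19 stood alone with a thresholded summit. arl-13, a small GTPase of the ciliary membrane, had a candidate 7 bp downstream of a start with a signal of 24.87 (rank 12144 in replicate 2, none in replicate 1). dyf-5, a MAK-type kinase that limits cilium length, had a candidate of 18.53 with a counterpart in neither replicate. tub-1, the tubby homolog, had none in any list. Over all roles, 34 pooled candidate summits lay in promoter windows, 30 of them below the threshold. In replicate 1, 26 had a counterpart within 200 bp (76.5%, interval 58.8 to 89.3, against 83.3% of all promoter candidates). In replicate 2, 19 did (55.9%, interval 37.9 to 72.8, against 73.8%). A counterpart in both was found for 14 (41.2%, interval 24.6 to 59.3, against 61.5%). For replicate 2 and for both, the share of all promoter candidates lies outside the interval. Some genes gave several of these summits, so the summits are not independent, and the differences were not tested. The same region of replicate 2 was the counterpart of more than 1 summit at klp-11 (rank 12427) and at dyf-1 (rank 15284). Of the 30 below the threshold, 10 were matched in both (33.3%, interval 17.3 to 52.8), against 45.6% of the 8407 such promoter candidates of all genes.

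Several further thresholded summits lay near cilia genes but outside the window. The strongest was in an intron of che-13, 1525 bp downstream of its start, with a signal of 288.0 and rank 1593, and it was 133 bp upstream of F59C6.16. tub-1 had one 1237 bp upstream (signal 207.8, rank 2524), which was 167 bp upstream of pch-2, an AAA ATPase of meiotic chromosome checkpoints. At nphp-4 the summit was 1376 bp upstream (96.5) and belonged to the window of hmp-1, the alpha-catenin gene, at 767 bp. The summit near arl-13 was 1613 bp upstream (86.63) and 81 bp upstream of ttc-5, and the one near dyf-1 was 1990 bp upstream (94.11) and 170 bp upstream of mes-3, a germline chromatin gene. Of the 9 genes with a thresholded summit within 2000 bp of a start, 6 had it closer to the start of another gene (66.7%, 95% Clopper-Pearson interval 29.9 to 92.5). Over the 5831 protein-coding genes with such a summit the share was 31.4%, which is inside that wide interval. Away from the starts, osm-1 held a summit in an intron 10042 bp downstream of its start (chrX:16550518-16550913, signal 130.3), ranked 4828 in replicate 1 and 3895 in replicate 2.

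**Figure D3:**
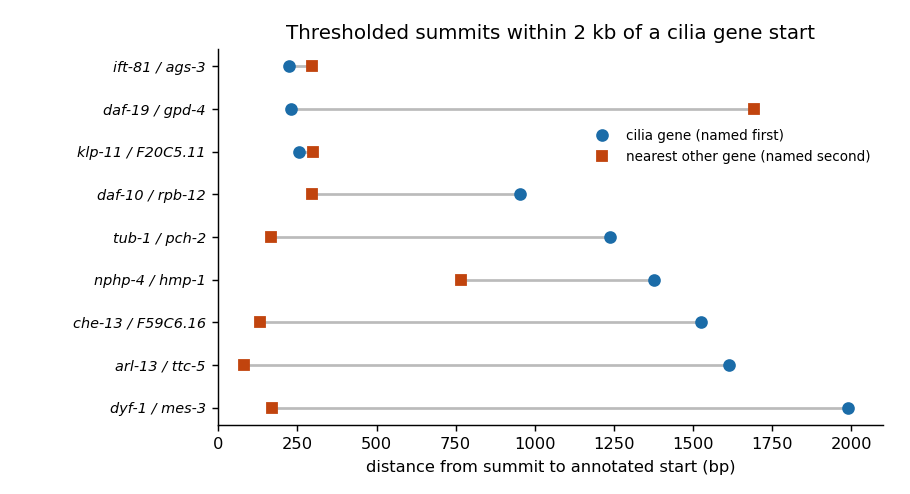
Distance in bp from the nearest thresholded summit to the start of the cilia gene (blue circles) and to the nearest start of another protein-coding gene (orange squares), for the 9 cilia genes with such a summit within 2000 bp. At daf-10, tub-1, nphp-4, che-13, arl-13 and dyf-1 the square lies to the left of the circle, and at ift-81, daf-19 and klp-11 it lies to the right.

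Distance and gene arrangement were read for all 40 genes. The nearest thresholded summit lay a median of 7.85 kb from a cilia gene start, against 5.83 kb over all genes, and it was over 10000 bp away at 15 of the 40 (37.5%, against 35.7% of all genes). Genes with several annotated starts have more window to be hit, and 15 of the cilia genes have several. Of these, 2 had a thresholded summit (13.3%, against 31.2% of all such genes), and of the 25 with 1 start, 2 did (8.0%, against 16.9%). An upstream neighbour on the same strand ended within 500 bp of 14 cilia genes or overlapped them (35.0%, against 20.6% of all genes). The overlaps were at osm-3, klp-20, bbs-5 and xbx-1. Of those 14 only daf-10 had a thresholded summit (7.14%, against 14.5% of all such genes). Among the 16 with an upstream neighbour on the opposite strand, 3 had one (18.8%, against 27.0%). These groups hold few genes with a thresholded summit, some genes are in more than 1 group, and the differences from all genes were not tested.

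The X-boxes were set against the summits. Of the 28 genes with an X-box near a start, daf-10 and daf-19 had a thresholded summit (7.14%, 95% Clopper-Pearson interval 0.877 to 23.5), where 18.8% of all 1178 genes with an X-box did (222), a share inside that interval. A pooled candidate was present at 14 of the 28 (50%), against 48.6% of all genes with an X-box. The other 2 thresholded genes, ift-81 and klp-11, were among the 12 without an X-box in that window. None of the 4 summits had an X-box within 100 bp, where 2.29% of all 6423 thresholded summits had one, so 4 summits are too few to read. The X-box of daf-19 lay inside the called region but 153 bp from its summit, on the side of the gene. That of daf-10 lay 900 bp from the summit, between the end of rpb-12 and the start of daf-10.

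Some weak candidates lay closer to an X-box. A pooled candidate summit was within 100 bp of one at 6 of the 28 genes (21.4%, interval 8.3 to 41), against 13.2% of all genes with an X-box (156 of 1178), which is inside the interval. At dyf-11 the distance was 10 bp, at osm-6 38 bp, and at dyf-2 and arl-13 65 bp. The other 2 were dyf-5 (71 bp) and dyf-1 (82 bp). All of these candidates were below the threshold, at dyf-2 the one of signal 18.73 and at dyf-11 the one of 51.26. Their −log10 q-values were 2.16 at dyf-11, 1.1 at osm-6, 0.322 at dyf-1, 0.319 at arl-13, 0.122 at dyf-2 and 0.116 at dyf-5. Most of them thus cannot be told apart from background by this measure. Of the candidate summits within 100 bp of an X-box, none had a counterpart in both replicates.

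**Figure D4:**
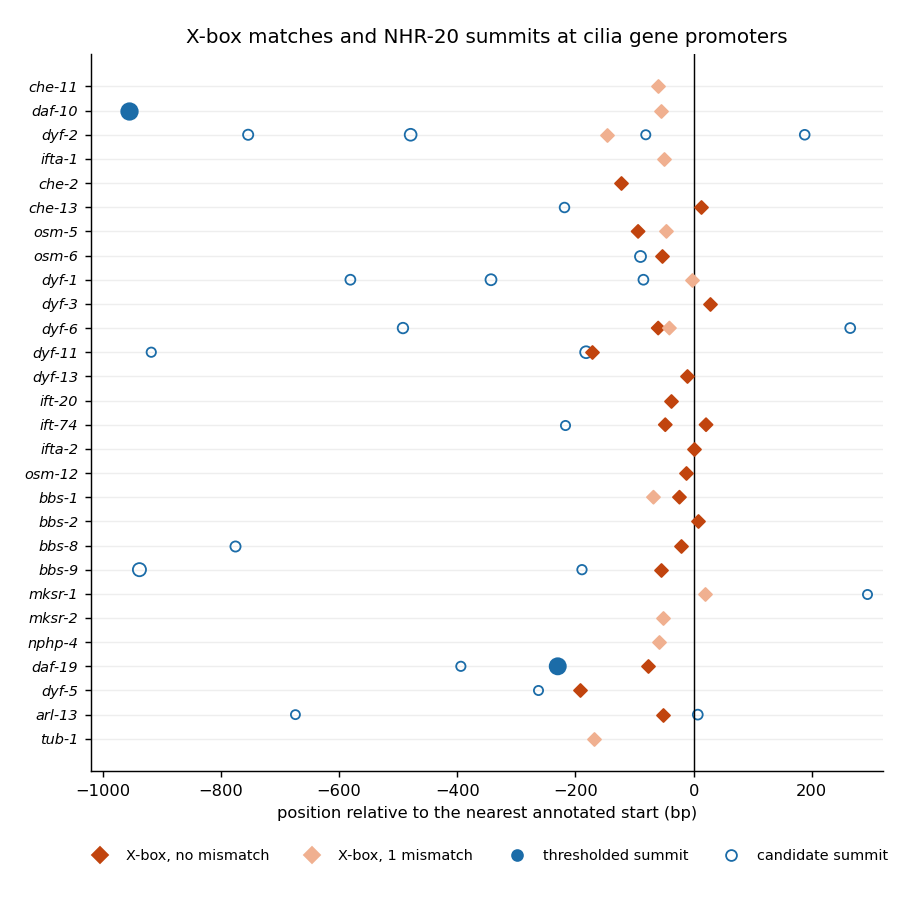
Positions of X-box matches (diamonds) and pooled NHR-20 summits (circles, filled where thresholded, larger for higher signal) at the 28 cilia genes with an X-box, in bp from the nearest annotated start. Filled circles appear at daf-10 and daf-19 only; marks of a gene with several starts may refer to different ones, and the spreads of X-boxes (searched from 250 bp before to 50 bp after a start) and summits (1000 bp before to 300 bp after) are not comparable.

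Other gene lists were counted for comparison. Of 56 further cilia genes, 53 were matched, and 8 of these had a thresholded summit (15.1%, interval 6.75 to 27.6) and 22 a candidate (41.5%). Their 4 strongest were hyls-1, a centriole protein gene (signal 534.2, shared with hpo-9), the particle A gene ift-43 (510.6, shared with the Mediator subunit gene mdt-26), the transition zone gene tmem-107 (455.5, shared with the ribosomal protein gene rps-26) and asic-2, a sodium channel family gene (213.1, not shared). Each of these was stronger than any promoter summit of the 40 genes. Of 37 synaptic genes used throughout the nervous system, 9 had a thresholded summit (24.3%, interval 11.8 to 41.2) and 23 a candidate (62.2%). The intervals of the 3 lists overlap, and they cover counting error only.

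**Figure D5:**
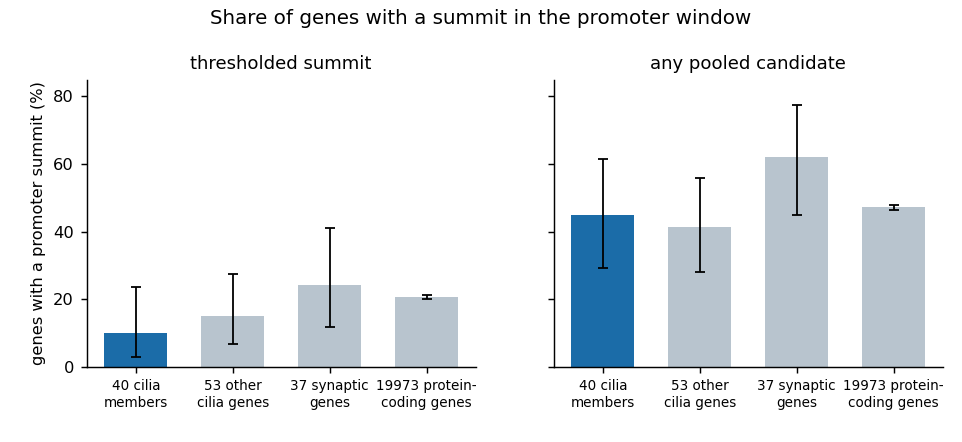
Share of genes with a thresholded summit (left) or any pooled candidate (right) in the promoter window, in percent, for the 40 cilia genes (blue), 53 other cilia genes, 37 synaptic genes and all 19973 protein-coding genes. Bars start at 0 and error bars are 95% Clopper-Pearson intervals; the cilia genes stand at 10% and 45.0%, and all genes at 20.6% and 47.2%.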

How the data were processed

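NHR-20 ChIP-seq of whole L1 larvae was analysed from region lists on ce11 (WBcel235). The signal per region, deposited by the authors, is relative to a control alignment that both replicates share, per the deposited notes. The deposited −log10 q-values reach a common maximum, so regions were ranked by signal. The summit offset is as deposited. Which aligner and peak caller were used is not given in the sources used here. The files hold no read totals, so depth is unknown and signal is compared within a list only. Control reads were not analysed here.

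Ensembl release 115 supplied 29314 protein-coding starts in 19973 genes. Promoter windows ran from 1000 bp before a start to 300 bp after it, and replicate summits matched within 200 bp. Python 3.11.15, pandas 2.3.3, numpy 2.4.6, scipy 1.17.1 and matplotlib 3.10.9 were used. Assignment and the X-box search were tested on simulated data. Of 200 summits placed inside or just outside a window, 200 were assigned as planted. Of 200 planted X-boxes without a mismatch, 200 were found, and sites with a mismatch were not planted. No test was made, since there is 1 group, and lists are described by counts beside those of all genes. Intervals cover counting error only and treat genes or summits as independent. Some summits are shared between genes and some genes have several, so whether a share lies inside an interval is a description. Members, lists and motifs were chosen with earlier results of these data known. Named genes are the members with a thresholded summit, genes sharing it, the strongest candidate of the others and the 4 strongest other cilia genes; genes near summits outside the window were named after their values were seen. Of the further cilia genes, 3 names were not matched and were left out.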

Additional observations from a re-analysis of the deposited data

How the results depend on the processing

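The count of cilia genes with a thresholded promoter summit (4) was 9 with a window of 2000 bp upstream, where all genes stood at 26.1%, and 2 (daf-10 and daf-19) among summits above the median signal, where all genes stood at 12.3%. The 5 genes added by the wider window were arl-13, che-13, dyf-1, nphp-4 and tub-1, each with a summit closer to another gene. The count was between 3 and 5 with a narrower window, the most upstream start, overlap of intervals or the nearest gene. All genes stood between 16.3% and 22.9% at these settings. The cilia genes counted were not always the same. daf-10 was lost with the narrower window and with the nearest gene, and klp-11 with the most upstream start. The nearest gene added dyf-5 and dyf-6. With 1 replicate left out the count with a thresholded summit ranged from 4 to 6, and the count with a candidate (18) from 13 to 16. All genes then stood between 20.3% and 20.7% with a thresholded summit, and between 46.8% and 47.6% with a candidate. Of the 4 summits, 3 were shared with another gene, and 1 of 3 in the narrower window of 500 bp upstream to 100 bp downstream. An X-box lay within 100 bp of 0 of the 4 and within 250 bp of 1, at daf-19. With 2 mismatches allowed, 32 cilia genes held an X-box, but so did 46.6% of all genes. The other alternatives kept each count within 1.5 times its main value. No paired analysis was possible because the series has 1 group. The lowest candidate signal and the unknown depth limit what absence from a list shows: a gene with no candidate had no region among the 30000 listed, which does not show that NHR-20 was absent there.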
